A study of Mus musculus with 47 samples.

Results

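The genes described here encode the proteins of the mitochondrial ribosome. They were chosen by symbol, as Mrpl or Mrps followed by a number and at most 1 letter, with Mrpl33 left out, and with at least 10 counts in at least 7 libraries. All 76 genes chosen by symbol met the minimum, of 48795 genes in the count table, and the gene nearest to the minimum, Mrpl53, still had at least 46 counts in every library. By symbol, 47 belong to the large subunit and 29 to the small subunit. Mrpl33 also has such a symbol, and it was a gene that moved: 8 WT mice averaged 11.2 ± 0.561 CPM (counts scaled to library size; SD) and 8 Q140 mice 13.5 ± 1.11 CPM, with an edgeR adjusted p of 0.000437. It was also higher in Q140 X Ccdc82+/- than in Ccdc82+/- (log2 difference 0.378, edgeR adjusted p 5.8e-08). The same held for Q140 X Ccdc82-/- against Ccdc82-/- (0.299, edgeR adjusted p 0.000104). The cause was not tested. Statements about the 76 genes therefore do not cover Mrpl33.

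Cortical RNA came from 47 mice of 6 months on a C57BL background, 23 female and 24 male. The groups were WT, Ccdc82+/-, Ccdc82-/-, Q140, Q140 X Ccdc82+/- and Q140 X Ccdc82-/-, with 8 mice each (4 of each sex) except the last, with 7 (3 female). Q140 is a knock-in allele of Htt with a lengthened CAG repeat, used as a model of Huntington's disease; the titles give its carriers as heterozygous. The Ccdc82 groups carried 1 or 2 altered copies of Ccdc82 in the germline, and the crosses asked whether losing Ccdc82 changes the cortex with or without Q140. Each library was taken as 1 mouse, because the titles number the samples within genotype and sex; the p-values measure the spread between these samples.

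Library totals lay between 43554594 and 61370843 counts, and the 76 genes together took between 0.159% and 0.167% of the counts of a library. Ccdc82 RNA averaged 16.2 CPM over the 8 WT mice (SD 1.58), 10.9 CPM with 1 altered copy (SD 0.962, 8 mice) and 5.32 CPM with 2 (SD 0.595, 8 mice), in the order of the labels. Markers of the labelled tissue were present: the 5 markers of excitatory cortical neurons summed to at least 1638 CPM in every mouse, while the 2 choroid plexus markers that were counted often enough to be tested summed to at most 5.53 CPM.

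Mitochondria keep their own ribosome, which makes the few respiratory chain subunits encoded by mitochondrial DNA. Its ribosomal RNAs come from that DNA, while every protein of it is encoded in the nucleus, made in the cytosol and imported. Some of these proteins have counterparts in the bacterial ribosome, and others arose in the mitochondrial lineage. NRF1 and the ETS factor GABP are known regulators of nuclear genes for mitochondrial proteins, and YY1 and ZNF143 bind close to the start of many widely expressed genes.

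The regions just upstream of 5 of the genes are shown because they hold the motifs found more often in this gene set than in other tested genes. RefSeq (GRCm38.p6) gave a promoter window, 250 bases before to 50 after the start, for 67 of the 76 genes. Each stretch is the 130 bases before the RefSeq start, 5′ to 3′ on the strand of the gene. In the GENCODE M21 annotation the genes Mrpl12 and Mrpl3 begin inside the stretch shown.
Mrpl12 (chr11:120484507-120484636, plus strand): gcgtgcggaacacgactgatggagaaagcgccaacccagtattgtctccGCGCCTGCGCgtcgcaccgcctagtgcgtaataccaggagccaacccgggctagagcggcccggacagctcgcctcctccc
Mrpl45 (chr11:97315586-97315715, plus strand): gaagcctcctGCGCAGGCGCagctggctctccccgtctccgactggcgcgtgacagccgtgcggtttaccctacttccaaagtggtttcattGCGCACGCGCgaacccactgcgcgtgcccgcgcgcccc
Mrpl3 (chr9:105053138-105053267, plus strand): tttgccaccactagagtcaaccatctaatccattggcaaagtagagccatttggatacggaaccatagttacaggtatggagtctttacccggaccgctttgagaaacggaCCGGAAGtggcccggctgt
Mrps22 (chr9:98601680-98601809, minus strand): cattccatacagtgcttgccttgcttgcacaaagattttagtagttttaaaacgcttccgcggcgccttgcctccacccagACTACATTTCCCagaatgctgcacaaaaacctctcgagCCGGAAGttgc
Mrpl34 (chr8:71464796-71464925, plus strand): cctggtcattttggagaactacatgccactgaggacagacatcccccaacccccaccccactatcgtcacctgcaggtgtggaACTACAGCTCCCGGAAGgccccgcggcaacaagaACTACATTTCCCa
Capitals mark motif matches on either strand. In Mrpl12, whose protein forms the stalk that recruits translation factors, and in Mrpl45, whose protein helps to hold the ribosome at the inner membrane, they mark the NRF1 motif, GCGCA and GCGC around any base. In Mrpl3, a core protein near the peptidyl transferase centre, they mark the ETS motif CCGGAAG. In Mrps22, a mitochondria-specific protein of the small subunit, and in Mrpl34 they mark the ETS motif and the ZNF143 motif, ACTACA and TCCC with any 2 bases between, and in Mrpl34 an ETS match overlaps the end of a ZNF143 match.

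The NRF1 motif was found in 13 of the 67 windows (19.4%), against 9.58% of the 11445 windows of tested protein-coding genes and 4.82% of all 27025 windows. The ETS motif was found in 22 windows (32.8%), against 16.01% and 9.14%. The YY1 motif AAGATGGCG was found in 8 (11.9%), against 2.77% and 1.48%, and the ZNF143 motif in 5 (7.46%), against 4.01% and 1.97%. In all, 31 windows (46.3%) held an NRF1 or ETS match, against 23.7% of the windows of tested protein-coding genes. Other promoter letters were about as frequent as elsewhere or less so: CCAAT stood in 38.8% of the windows (38.4% of tested genes), TATAAA in 5.97% (7.20%), the E-box CACGTG in 7.46% (9.68%), the CRE TGACGTCA in 2.99% (3.09%) and the SP1 letters GGGCGG in 50.7% (62.4%). Both strands were searched, and the longer motifs hold none of the shorter ones whole. The tested genes include the members, and these shares are descriptions of letters, not of binding.

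The matches lay at different places. The 25 ETS matches had a median position of -19 relative to the start, and 11 of the 16 NRF1 matches lay within the 100 bases before it. All 8 ZNF143 matches lay before the start, whereas 6 of the 8 YY1 matches lay after it. By motif, the median WT level was 9.27 FPKM with an NRF1 match and 9.93 FPKM without, 8.24 FPKM with an ETS match and 9.77 FPKM without, and 8.76 FPKM with a YY1 match and 9.72 FPKM without. The 5 genes with a ZNF143 match had a higher median, 16.003 FPKM against 9.14 FPKM, and so had the 5 with an E-box (12.7 against 9.40 FPKM) and the 2 with a CRE (15.6 against 9.27 FPKM). These few genes are described and were not tested.

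**Figure D1:**
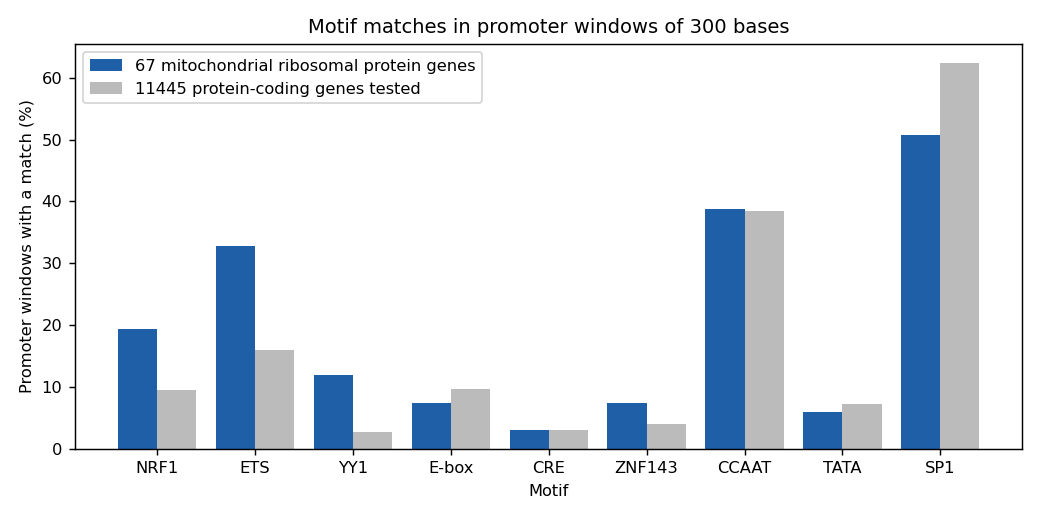
Share of promoter windows of 300 bases (vertical axis, percent) with at least 1 match to each motif (horizontal axis), for the 67 mitochondrial ribosomal protein genes (blue) and for 11445 tested protein-coding genes (grey). The blue bars exceed the grey ones most for NRF1 (19.4% against 9.58%), ETS (32.8% against 16.01%) and YY1 (11.9% against 2.77%), and SP1 goes the other way (50.7% against 62.4%).

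The genes were spread over 17 chromosomes of GRCm38 (GENCODE M21). Chromosome 5, which carries Htt, held 3 of them and chromosome 9, which carries Ccdc82, held 3; none lay within 5 Mb of either locus. The nearest was Mrpl4, 7.71 Mb from Ccdc82. Mrpl33, left out of the set, is not covered by these positions. Some genes have a protein-coding neighbour that is transcribed the opposite way from a start in the 1000 bases upstream of their own. This held for 18 of the 76 genes (23.7%), against 9.08% of the 15080 tested protein-coding genes. These pairs included Mrps12 with Sars2, the mitochondrial seryl-tRNA synthetase, 172 bases apart on chromosome 7, and Mrpl49 with Fau, a precursor of a cytosolic ribosomal protein, 59 bases apart on chromosome 19. Mrps27, a protein of the pentatricopeptide repeat type, was paired with Ptcd2, another of that type, 81 bases apart. Mrpl32 was paired with the proteasome gene Psma2 at 75 bases.

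Levels within the set were compared per length, as FPKM (counts divided by gene length and library total). In WT the median of the 76 genes was 9.40 FPKM, above 71.5% of all tested genes, whose median was 3.67 FPKM. The highest was Mrpl41 (ENSMUSG00000036850, GRCm38 chr2:24974117-24975098), a mitochondria-specific protein of the large subunit, with 27.6 FPKM in the lowest, 30.6 FPKM in the median and 31.9 FPKM in the highest of 8 WT mice. It was followed by Mrpl42 (27.7 FPKM, median), Mrps21 (24.0 FPKM), Mrpl4 (23.3 FPKM) and Mrpl12 (22.8 FPKM). The lowest were Mrpl13 (2.31 FPKM), Mrps35 (2.24 FPKM), Mrpl17 (2.20 FPKM), Mrpl53 (1.98 FPKM) and Mrpl23 (ENSMUSG00000037772, GRCm38 chr7:142532686-142540747), with 0.546 FPKM in the lowest, 0.629 FPKM in the median and 0.834 FPKM in the highest mouse. From Mrpl23 to Mrpl41 the medians differed 48.7-fold in FPKM, although most of the proteins are present once in each particle. The order rests on the gene lengths behind the FPKM, which need not be those of the transcripts present. Mrpl13 (7.94 kilobases) and Mrpl42 (0.666 kilobases) both had WT medians of 18.5 CPM, beside 2.31 and 27.7 FPKM. The part of these lengths in the order, and in the contrasts of subunit and role below, was not tested. Mrpl23, Mrpl48 and Mrps36 have annotated pseudogene copies (GENCODE M21), so their levels are uncertain. In GENCODE M21, 12 of the genes overlap another gene on their own strand, so that reads could be shared: Mrps6 (Slc5a3), Mrps24 (Urgcp), Mrps34 (Nme3), and Mrpl2, Mrpl3, Mrpl15, Mrpl21, Mrpl46, Mrpl51, Mrpl53, Mrps18c and Mrps28 with predicted or microRNA genes. A further overlap, on the other strand, was found for 34 genes, and no source used here gives the strand setting of the counting.

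The order was a gradual slope. Of the 75 pairs of neighbours in the WT order, 73 had overlapping ranges over the mice; the exceptions were Mrps31 above Mrps25, and Mrpl53 above Mrpl23. Large subunit genes had a median of 10.3 FPKM and small subunit genes 7.71 FPKM. The 45 genes with a bacterial counterpart had a median of 9.52 FPKM and the 31 mitochondria-specific genes 8.75 FPKM. These classes follow the uniform names of ribosomal proteins, by which Mrps18a, Mrps18b and Mrps36 count as mitochondria-specific.

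Genes with a known place in the particle were spread along this order. At the peptidyl transferase centre, Mrpl2 stood at 18.01 FPKM and Mrpl3 at 11.3 FPKM. Mrpl11, at the base of the factor-binding stalk, stood at 9.84 FPKM, less than the 22.8 FPKM of Mrpl12, which is present in several copies per ribosome. Mrps12, at the decoding centre, stood at 21.6 FPKM and Mrps16 at 15.8 FPKM. Mrpl44, which has a ribonuclease III fold, stood at 9.77 FPKM and Mrpl45 at 9.72 FPKM. The small subunit proteins Mrps27, Mrps34 and Mrps22 stood at 12.5, 11.2 and 3.63 FPKM, and the large subunit protein Mrpl57 at 6.64 FPKM. The 3 relatives of a single bacterial protein, Mrps18a, Mrps18b and Mrps18c, stood at 8.33, 5.80 and 7.12 FPKM; Mrps18a and Mrps30 (10.02 FPKM) are named for the small subunit but sit in the large subunit of the mammalian particle. Mrps36, at 6.08 FPKM, is now known as a component of the 2-oxoglutarate dehydrogenase complex.

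**Figure D2:**
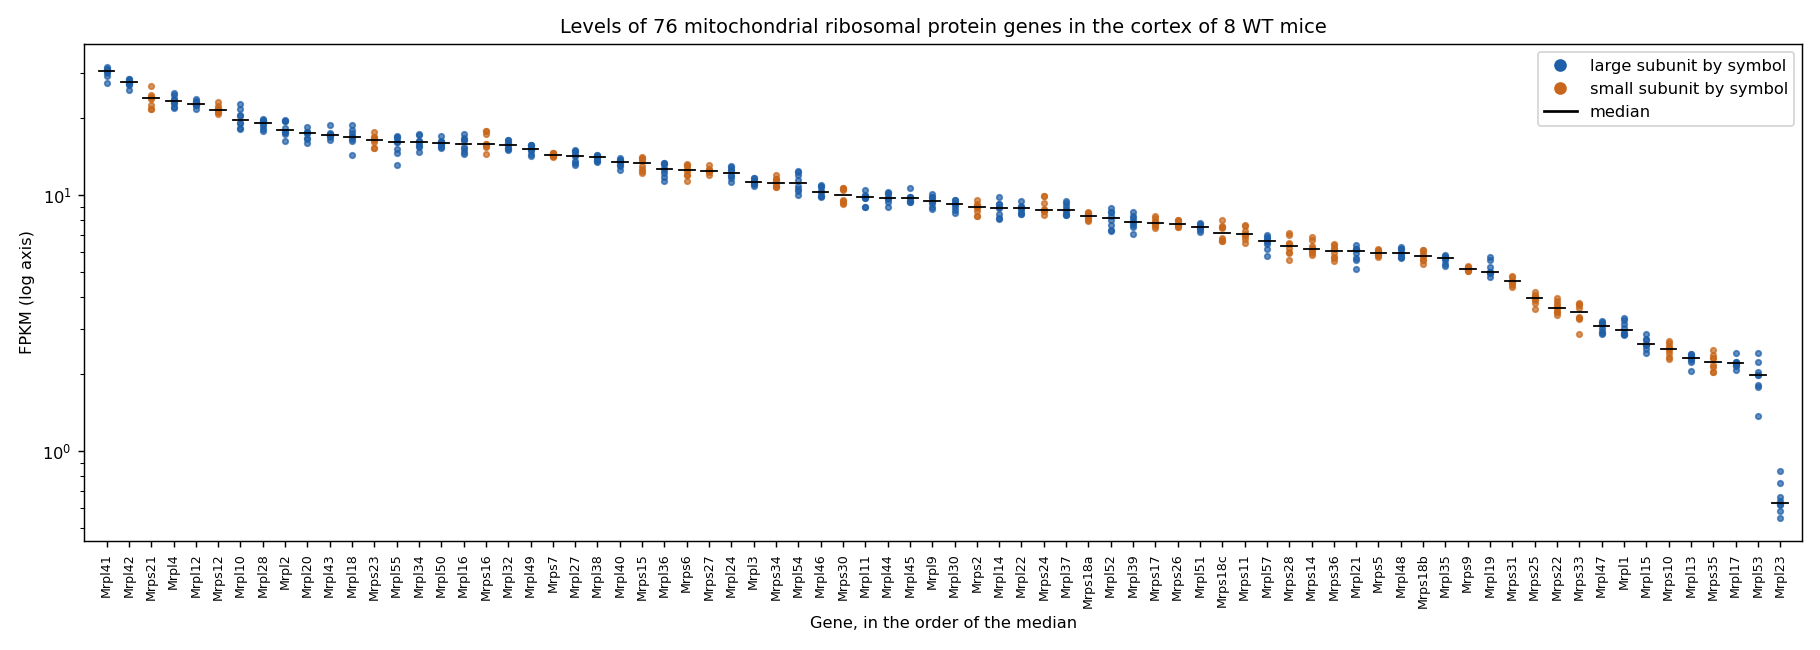
Level of each of the 76 genes (horizontal axis, ordered by median) in FPKM on a log axis; points are the 8 WT mice, black lines medians, blue the large and orange the small subunit by symbol. Levels fall gradually from Mrpl41 (30.6 FPKM) to Mrpl17 (2.20 FPKM), with Mrpl23 apart at 0.629 FPKM.

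Levels in the other genotypes were close to those in WT. Across the 5 other groups, the median gene departed from its WT median by between 0.0246 and 0.0339 on the log2 scale of FPKM, and between 71 and 74 of the 76 genes departed by less than 0.1. The gene that departed most was Mrpl53 in 4 of the groups and Mrpl14 in Q140 X Ccdc82-/-.

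In none of the 12 genotype comparisons was any of the 76 genes called at an adjusted p under 0.05 (edgeR quasi-likelihood test, Benjamini-Hochberg over 19174 genes). This includes the comparison with most calls elsewhere, Q140 against no Q140 averaged over the 3 Ccdc82 genotypes, in which 0.876% of all genes were called (0.339% higher and 0.537% lower). The share of all genes called was 0.0313% for Q140 against WT, 0.0313% for Q140 X Ccdc82+/- against Ccdc82+/- and 0.0209% for Q140 X Ccdc82-/- against Ccdc82-/-. It was 0.00522% in each of the 4 single comparisons of a Ccdc82 genotype with its control and in both averaged Ccdc82 effects, and 0 in both interactions. By direction, the shares higher and lower were 0.0209% and 0.0104% for Q140 against WT and for Q140 X Ccdc82+/- against Ccdc82+/-. For Q140 X Ccdc82-/- against Ccdc82-/- they were 0.0156% and 0.00522%. In each single or averaged Ccdc82 comparison the 1 gene called was Ccdc82 itself, which was lower. With shares this low a count of 0 among 76 genes is near the background, and the effect sizes and intervals say more.

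For the averaged Q140 effect the differences were small and bounded. The 76 log2 differences ran from -0.0477 to 0.0376, with a median of -0.0035, against a median of 0.000853 over all tested genes. None of the 76 had an unadjusted p under 0.05, against 9.18% of all tested genes and 8.87% of the 11004 genes in the same range of mean level. The smallest unadjusted p was that of Mrps18a (0.0512, adjusted 0.548), at a log2 difference of -0.03 (SE 0.0172). The 95% interval lay within ±0.1 log2, a change of 7.18%, for 69 of the 76 genes, and within ±0.2 for all 76. These intervals are for each gene alone and are not adjusted for their number. Of the 5 astrocyte markers, Slc1a2, the main glutamate transporter of astrocytes, was called lower in this comparison (-0.08, SE 0.0172, adjusted p 0.0123). Their sum ran from 4313 to 5063 CPM in WT, 4324 to 4640 CPM in Ccdc82+/- and 4218 to 4717 CPM in Ccdc82-/-. With Q140 it ran from 4050 to 4717 CPM, with Q140 X Ccdc82+/- from 4034 to 4635 CPM and with Q140 X Ccdc82-/- from 4192 to 4413 CPM. No astrocyte marker was at 0, and their part in the values of the 76 genes was not tested.

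The Ccdc82 effects were bounded about as tightly. Averaged over mice with and without Q140, the intervals of Ccdc82+/- lay within ±0.1 log2 for 67 genes and those of Ccdc82-/- for 64. In Ccdc82+/- the smallest unadjusted p was that of Mrps24 (log2 difference -0.07, SE 0.0277, adjusted p 0.905). In Ccdc82-/- it was that of Mrps5 (0.04, SE 0.0155, adjusted p 1.0). The 7 single comparisons had wider intervals, within ±0.1 for between 39 and 46 genes and within ±0.2 for between 71 and 75. The interactions were least precise, with 8 and 9 genes within ±0.1. Between 0 and 4 of the 76 genes had an unadjusted p under 0.05 in any of these comparisons, and DESeq2 and limma called none either.

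**Figure D3:**
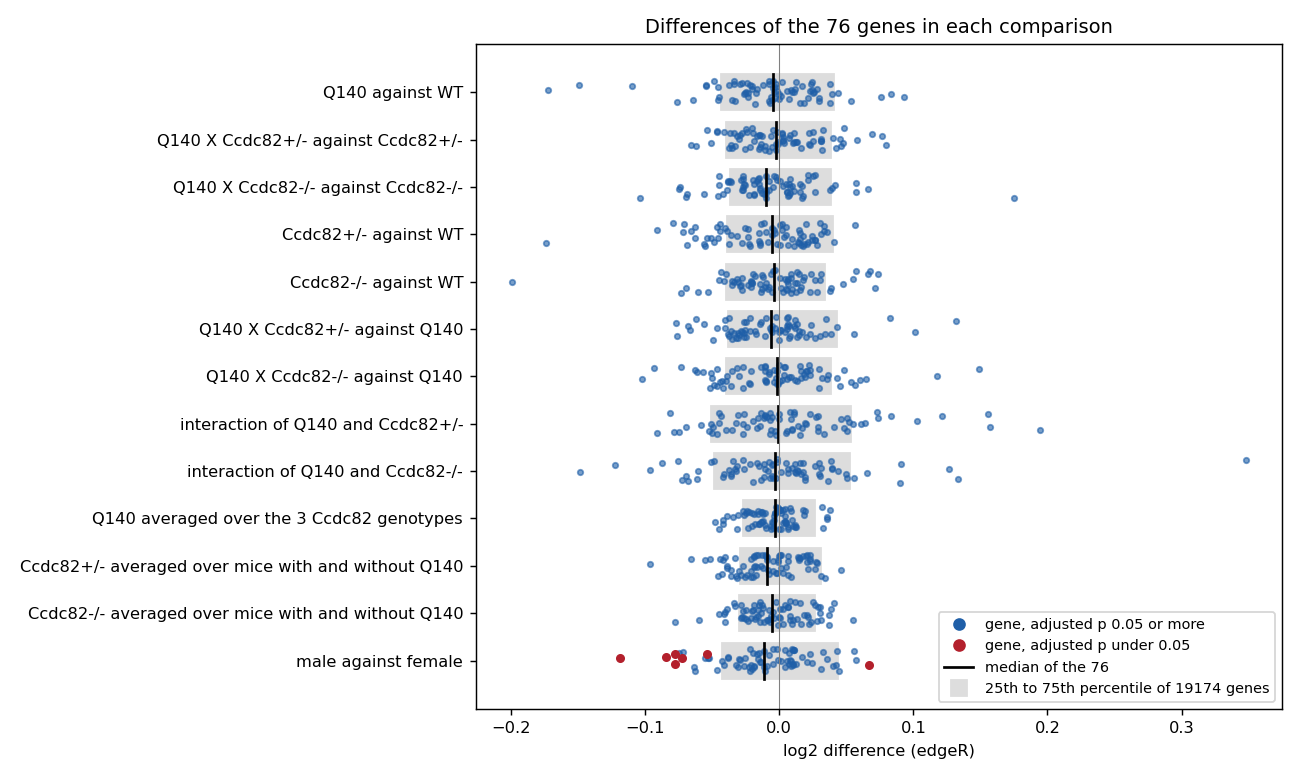
Log2 differences (horizontal axis) of the 76 genes in each of the 13 comparisons (rows); points are genes, red where the adjusted p was under 0.05, black lines their medians, and grey boxes the range from the 25th to the 75th percentile of all 19174 tested genes. All medians of the genotype comparisons lie between -0.0098 and -0.00116, and red points appear in the row of males against females alone.

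Over the 12 genotype comparisons, the gene with the smallest adjusted p was Mrps10 (ENSMUSG00000034729, GRCm38 chr17:47368887-47381417), a core protein of the small subunit head. Its level was 18.6 CPM in the lowest, 20.4 CPM in the median and 21.7 CPM in the highest WT mouse, and 17.7, 18.9 and 19.6 CPM in the 8 Q140 mice. The Q140 values lay low but overlapped those of WT. The log2 difference was -0.11 (SE 0.0318), with an unadjusted p of 0.00115 and an adjusted p of 0.281. In Q140 X Ccdc82+/- the lowest, median and highest values were 19.3, 19.8 and 22.1 CPM, and in Q140 X Ccdc82-/- they were 18.1, 19.7 and 20.6 CPM. Among mice without Q140, the medians were 19.3 CPM in Ccdc82+/- and 19.5 CPM in Ccdc82-/-. The interaction of Q140 with Ccdc82+/- was 0.16 (SE 0.0449); its p ranked at position 8 of all tested genes, yet its adjusted p was 1.0.

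Mrps33 (ENSMUSG00000029918, GRCm38 chr6:39801804-39810988), a mitochondria-specific small subunit protein, had a like order of medians. In WT its lowest, median and highest values were 4.82, 5.86 and 6.35 CPM, and in Q140 they were 4.84, 5.23 and 5.70 CPM. The range of Q140 lay inside that of WT. The log2 difference was -0.15 (SE 0.0564, adjusted p 0.565), and the medians were 5.82 CPM in Q140 X Ccdc82+/- and 5.70 CPM in Q140 X Ccdc82-/-. The differences against Q140 were 0.13 (SE 0.0566, adjusted p 0.921) and 0.12 (SE 0.0585, adjusted p 0.997). The interaction with Ccdc82+/- was 0.19 (SE 0.0797, adjusted p 1.0). All these comparisons share the Q140 mice.

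The largest log2 value in any genotype comparison was that of Mrpl53, the least counted gene. Its median was 1.55 CPM in WT and 1.33 CPM in Ccdc82-/-, and 1.40 CPM in Q140 and 1.43 CPM in Q140 X Ccdc82-/-; all 4 groups overlapped. The interaction of Q140 with Ccdc82-/- was 0.35 (SE 0.168, 95% interval 0.00993 to 0.686), with an unadjusted p of 0.0439 and an adjusted p of 1.0.

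Other genes had small unadjusted p-values too. Mrpl24, a core large subunit protein, had medians of 27.6 CPM in WT, 29.2 CPM in Ccdc82-/-, 28.9 CPM in Q140 and 27.7 CPM in Q140 X Ccdc82-/-; its interaction was -0.12 (SE 0.0469, adjusted p 1.0). Mrpl13 had medians of 18.5 CPM in WT and 19.2 CPM in Q140, with a log2 difference of 0.08 (SE 0.0337, adjusted p 0.651). Mrps18a had medians of 30.9 CPM in WT and 29.2 CPM in Q140, with a difference of -0.06 (SE 0.0294, adjusted p 0.674). The groups of these genes overlapped, as they did for all 76 genes in each of the 7 single comparisons, in which between 0.0104% and 0.0522% of all genes had groups that did not overlap.

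**Figure D4:**
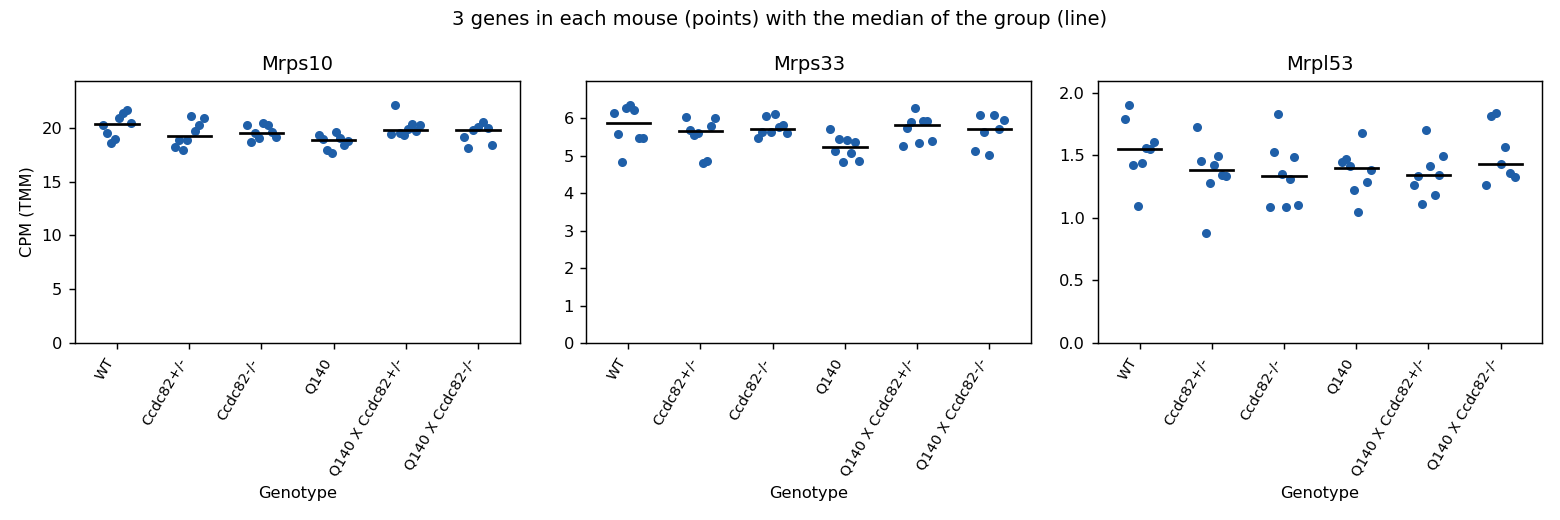
Level in CPM (vertical axis, from 0) of Mrps10, Mrps33 and Mrpl53 in each mouse (points) by genotype, with group medians as lines. Mrps10 and Mrps33 have their lowest median in Q140 (18.9 and 5.23 CPM) with overlapping points, and Mrpl53 scatters widely in every group.

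The genes were also steady from mouse to mouse. With genotype and sex removed, the SD of log2 CPM had a median of 0.0681 over the 76 genes. Over the 11004 tested genes in their range of mean level it was 0.104, and 79.6% of those genes lay above the members' median. Those genes lie between the lowest and highest member in mean level and were not matched to the members within that range. The part of counting error in this gap was not tested. The steadiest was Mrps5 (ENSMUSG00000027374, GRCm38 chr2:127587222-127606829), a core small subunit protein, with an SD of 0.0355, where counting error alone gives 0.0322. Its level was 38.1, 39.3 and 40.3 CPM in the lowest, median and highest WT mouse, and 37.2, 38.7 and 39.8 CPM in Q140. Next came Mrpl3 (0.0403) and Mrps17 (0.0450), both core proteins with high counts. The most variable were Mrpl53 (0.231), Mrpl23 (0.171) and Mrpl14 (0.116), for which counting error gives 0.170, 0.113 and 0.0711. Mrpl53, the least counted gene, had 1.09, 1.55 and 1.90 CPM in the lowest, median and highest WT mouse, and its intervals were the widest of the set in most comparisons.

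The mean over the 76 genes summarises each mouse. As log2 CPM relative to the WT mean, it was 0 ± 0.0187 (SD, n = 8) in WT, -0.0131 ± 0.0157 (n = 8) in Ccdc82+/- and -0.0037 ± 0.0189 (n = 8) in Ccdc82-/-. With Q140 it was -0.0077 ± 0.0271 (n = 8), with Q140 X Ccdc82+/- -0.0138 ± 0.0273 (n = 8) and with Q140 X Ccdc82-/- -0.0123 ± 0.0280 (n = 7). All group means lay within 1 SD of the WT mean, and the groups overlapped. Over all mice the lowest was a male Q140 X Ccdc82-/- mouse (-0.0457) and the highest a female Q140 X Ccdc82+/- mouse (0.0341). In whole tissue, a steady level cannot tell unchanged cells from changes in cell number and in RNA per cell that offset each other.

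**Figure D5:**
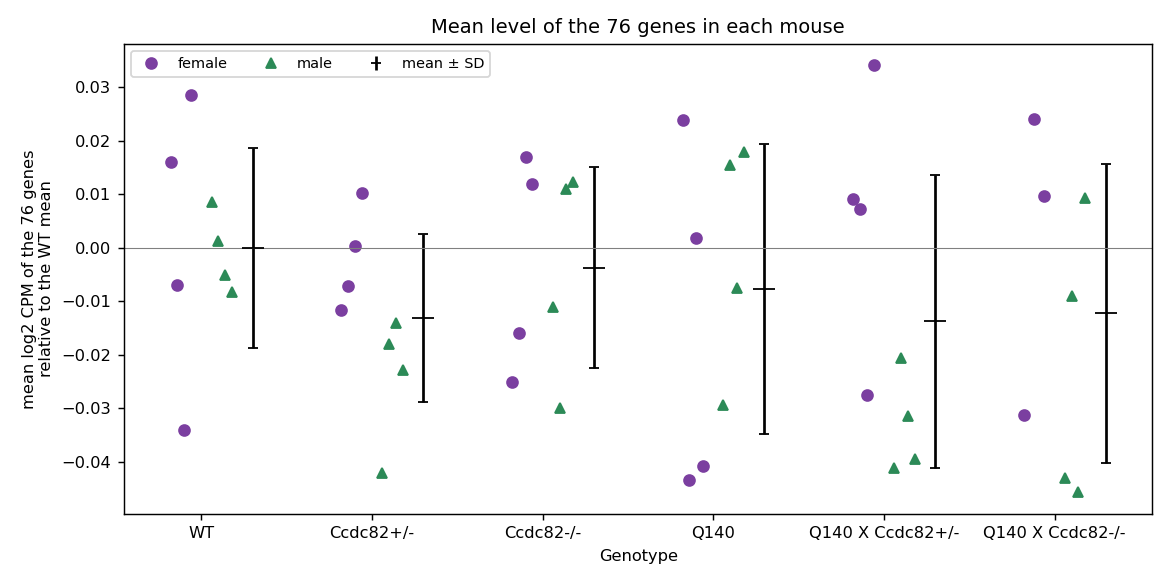
Mean log2 CPM of the 76 genes relative to the WT mean (vertical axis) for each mouse by genotype; circles are females, triangles males, and the bars beside them show mean ± SD. Every mouse lies between -0.0457 and 0.0341, and the 6 genotypes overlap.

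Between the sexes 7 of the 76 genes (9.21%) were called, beside 10.5% of all tested genes (5.26% higher and 5.27% lower in males). The total share is near the background. By direction, 1 of the 76 was higher and 6 were lower in males. The mean over the 76 genes averaged -0.0143 (SD 0.0205) in 24 males and -0.00216 (SD 0.0230) in 23 females. Whether this direction is a property of the set was not tested, and the genes are given for reference. Libraries with the same number in their name were always of the same sex, and limma estimated a correlation of 0.142 among them. The edgeR fit took all libraries as independent, so its p-values between the sexes may be too small. With that number as a random block in limma, 3 of the 76 (3.95%) were called, beside 4.44% of all genes. Mrpl19, Mrpl34, Mrpl49 and Mrps10 then missed the threshold, with limma adjusted p of 0.0505, 0.143, 0.115 and 0.058. Mrps6 (ENSMUSG00000039680, GRCm38 chr16:92058270-92112227), the counterpart of a bacterial small subunit protein, was lower in males, with 11.3, 12.4 and 15.7 CPM in the lowest, median and highest of 24 males and 12.7, 13.8 and 15.8 CPM in 23 females. The ranges overlapped for most of their length. Its log2 difference was -0.12 (SE 0.0291, edgeR adjusted p 0.00617). It overlaps Slc5a3, a myo-inositol transporter gene, on the same strand, so part of its counts may be uncertain.

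Also lower in males were Mrps12 (-0.08, adjusted p 0.00647), Mrps14 (-0.08, 0.0091), Mrpl19 (-0.07, 0.0131), Mrpl49 (-0.05, 0.0383) and Mrpl34 (-0.08, 0.0465), each given as the log2 difference and the edgeR adjusted p. All but the mitochondria-specific Mrpl49 have bacterial counterparts, as have 45 of the 76 genes. Mrps12 had 20.1, 21.4 and 23.1 CPM in the lowest, median and highest male and 20.3, 22.6 and 24.3 CPM in females. Mrps10 was higher in males (0.07, adjusted p 0.0152), with medians of 20.1 CPM in males and 19.1 CPM in females. Sars2, which starts 172 bases from Mrps12 in the opposite direction, was higher in males (0.08, adjusted p 0.0381), so this pair of neighbours was called in opposite directions. With 2 surrogate variables as terms, which correlated with sex by 0.678 and 0.667 in size, Mrps6 (0.14), Mrps12 (0.0015) and Mrpl19 (0.04) took the other sign, and 1 of the 76 genes (1.32%) was called, beside 6.01% of all genes in that fit.

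Cell type markers also differed between the sexes. Of the 4 endothelial markers, 3 were lower in males (Cldn5, Flt1 and Kdr), and their sum ran from 118 to 144 CPM in males and from 122 to 157 CPM in females. Of the 5 interneuron markers, Gad1 and Gad2 were higher in males, with sums from 842 to 952 CPM against 826 to 912 CPM. Of the 4 striatum markers, Ppp1r1b was higher in males (0.10, adjusted p 0.0339), with sums from 76.5 to 102 CPM against 76.8 to 100.4 CPM. No marker of these 3 lists was at 0. Their part in the differences of the 7 genes was not tested.

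The other genes of mitochondrial translation and transcription were tested as 6 lists. Of their 94 genes, all tested, none was called in any genotype comparison; the smallest adjusted p was 0.180. The other structural proteins of the mitoribosome (6 genes) included Dap3, which binds GTP in the small subunit, at a median of 52.4 CPM, and Ptcd3 at 47.4 CPM. For the averaged Q140 effect the lists had median log2 differences of -0.0136 for those structural proteins, -0.0087 for 26 assembly factors, -0.0104 for 16 translation factors and -0.0015 for 17 aminoacyl-tRNA synthetases. The 14 genes of mitochondrial transcription and its nuclear regulators had a median of -0.0018, and 2 of them (14.3%) had an unadjusted p under 0.05, as had 1 assembly factor (3.85%), 1 translation factor (6.25%) and 9.18% of all genes. In Q140 against WT, 5 of the 26 assembly factors (19.2%) had an unadjusted p under 0.05, beside 6.93% of all genes; none passed the adjusted threshold. The 15 mitochondrially encoded RNAs had a median of -0.0115; all genes had 0.000853. Of the regulators whose motifs are shown above, Nrf1 stood at a median of 14.4 CPM, Gabpa at 24.8 CPM and Yy1 at 44.3 CPM.

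Between males and females 3 of these 94 genes (3.19%) were called, beside 10.5% of all tested genes. They were Ict1 (0.06, adjusted p 0.0363), a peptidyl-tRNA hydrolase of the large subunit that is also known as Mrpl58, Sars2, and mt-Nd2 (-0.07, adjusted p 0.0207), a subunit of complex I. All 15 mitochondrially encoded RNAs had log2 differences below 0 in males, with a median of -0.05, and mt-Nd2 alone passed the threshold. They were counted very unevenly, with a median of 17280 CPM for mt-Co1. The medians of mt-Nd4l, mt-Nd3, mt-Atp8, mt-Atp6, mt-Co3 and mt-Co2 lay between 0.661 and 9.665 CPM. Whether reads of these low RNAs were lost in counting was not tested. The part of the mitochondrially encoded RNAs in the differences of the 7 genes was not tested. The mitochondrially encoded RNAs took between 4.24% and 5.03% of the counts of a library.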

How the data were processed

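The authors deposited raw read counts per gene and FPKM values per gene for each library. Per the submitters' processing notes, STAR 2.7.5c, SAMtools 1.10 and HTSeq 0.12.3 were used with GRCm38/mm10; the annotation release and the strand setting of the counting are not given in the sources used here. For each of 16542 genes checked, the FPKM were proportional to counts divided by library total across the libraries. The gene lengths given here were worked back from that ratio and were not taken from an annotation. The 76 genes, the pathway lists and the tests were chosen with earlier results of these data known.

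Counts of 47 libraries were fitted in edgeR 4.0.16 (R 4.3.3, TMM, robust quasi-likelihood) with 6 genotype means and sex, after filterByExpr (minimum count 10, minimum total 15) had left 19174 genes. P-values were adjusted by Benjamini-Hochberg over all 19174 genes, with 0.05 as the threshold. CPM are counts scaled by library total and TMM factor, and spread used log2 CPM with a prior count of 2. FPKM levels are as deposited. Positions came from GENCODE M21 and promoters from RefSeq. The code was tested on simulated data. Alternatives used DESeq2 1.42.0, limma 3.58.1 on log2(FPKM + 0.1) or log2(FPKM + 1), sva 3.50.0, and other terms, filters and scaling. No library was left out, and no pair of libraries within a group agreed within sampling noise. Named genes were those called in any comparison, the 2 with the smallest p in each of 13 comparisons, the 5 highest and 5 lowest, the 3 most and 3 least variable, and 17 chosen by role; a few others are named as exceptions or by position, chosen after their values were seen.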

Additional observations from a re-analysis of the deposited data

Results flagged for a closer look

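A single mouse stood apart from the rest of its genotype, by Dixon's test at the 95% level, in 14 of 264 sets of values, from the 43 named genes and the mean over the 76 genes in each genotype (5.30%), where chance gives about 5%. The flagged values were spread over mice and genotypes. Mrpl13 was at 16.3 CPM in female 2 of WT, below the 18 to 19.2 CPM of the others. Mrpl45 was at 27.9 CPM in female 4 of WT, above the 24.4 to 25.6 CPM of the others. Mrpl11 was at 25.5 CPM in female 2 of Ccdc82+/-, below the 27.5 to 29.1 CPM of the others. Mrpl44 was at 14.2 CPM in male 1 of Ccdc82+/-, below the 16.1 to 17 CPM of the others. Mrpl41 was at 30.8 CPM in male 4 of Q140, above the 26.3 to 28.2 CPM of the others. Mrps18b was at 9.14 CPM in female 1 of Q140, below the 11.2 to 12.3 CPM of the others. Mrps21 was at 20.2 CPM in male 2 of Q140, above the 16 to 17.5 CPM of the others. Mrpl12 was at 41 CPM in female 4 of Q140 X Ccdc82+/-, above the 32.4 to 35.4 CPM of the others. Mrpl23 was at 3.68 CPM in female 1 of Q140 X Ccdc82+/-, above the 3.02 to 3.32 CPM of the others. Mrpl35 was at 21.7 CPM in male 4 of Q140 X Ccdc82+/-, below the 23.1 to 24.3 CPM of the others. Mrpl49 was at 23.5 CPM in male 1 of Q140 X Ccdc82+/-, below the 26.1 to 27.5 CPM of the others. Mrps10 was at 22.1 CPM in female 2 of Q140 X Ccdc82+/-, above the 19.3 to 20.3 CPM of the others. Mrps27 was at 26.8 CPM in female 1 of Q140 X Ccdc82+/-, above the 21.7 to 23.9 CPM of the others. Mrpl14 was at 8.91 CPM in female 2 of Q140 X Ccdc82-/-, above the 7.09 to 7.82 CPM of the others.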

How the results depend on the processing

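Across 165 fits of the 12 genotype comparisons, the number of the 76 genes called was 0 under every setting tried, and the smallest adjusted p of any of them was 0.139. With the replicate block, from the numbers within sex, the count was also 0 in the 12 genotype comparisons. Same-numbered libraries of a sex had a median correlation of -0.0146 over 115 pairs, against -0.0253 over 345 other pairs. Of the 47 libraries, 18 correlated best with their own number, and the count to be met without pairing was not worked out. For libraries that share the number in the library name, limma estimated a correlation of 0.142. Medians over the 76 genes moved by less than 0.0224 in all genotype comparisons, the SD within groups of the mean over the 76 genes. That limit is wider than the medians themselves, so it says little about their sign. For the averaged Q140 effect the median ran from -0.0077 to 0.0044 over the settings.

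Between the sexes the count of 7 (beside 10.5% of all genes) moved to 11 with plate column as a factor (14.4% of all genes), to 3 with the number in the library name as a random block (4.44%), to 1 with 2 surrogate variables (6.01%), and to 3 (6.64%) with 2 surrogate variables whose null model left out sex, an alternative chosen after seeing the data. With the first surrogate fit the median moved to 0.05341, and Mrps6 (0.1436), Mrps12 (0.001546) and Mrpl19 (0.03631) reversed; those variables correlated with sex by 0.678 and 0.667 in size, and the cause was not tested. A further 19 values of the 7 genes kept their sign but missed the threshold. Depth limits Mrpl53 and Mrpl23 most. In the single genotype comparisons the 95% interval reached beyond 0.1 log2 for between 30 and 37 of the 76 genes, so those intervals include larger differences.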
